A study of Danio rerio with 26 samples.

Results

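The 51 transcripts described here stood in every withdrawal liver at 5 TPM or more and at least 2 times above every control and alcohol-exposed liver. TPM, the usual unit of transcript abundance, is a transcript's length-adjusted share of a library, and it sums to the same total in every library. The 51 were picked by that rule from the 57918 Ensembl transcripts of the deposited liver table. They are 1.09% of the 4682 transcripts that met the level criterion alone. The rule used all 12 liver libraries, so the gap between withdrawal livers and the rest is how the transcripts were chosen and is given without a test.

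The fish were zebrafish (Danio rerio, wild type, the short-fin AB strain) of both sexes and unstated age, kept at 28 °C under a cycle of 14 h light and 10 h dark. Withdrawal fish, in which exposure had ended, were compared with alcohol-exposed fish, which spent 9 weeks in water with 0.5% ethanol renewed daily, and with control fish moved daily between tanks without ethanol. The labels describe 30 fish in each of the control and alcohol-exposed groups of each sex. Control and alcohol-exposed fish were also bred during the later weeks of exposure. How long withdrawal lasted, and in how many fish, is not stated in the labels. Each of the 6 groups of condition and sex had 2 liver libraries. The brain set held 3 libraries each of withdrawal males and control females and 2 each of the other 4 groups. Tissue was pooled within groups before sequencing. Because no label says that the replicates of a group were different fish, all p-values reflect variation among these libraries alone, and that variation may be technical.

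The liver clears most ingested ethanol. Alcohol dehydrogenase turns it into acetaldehyde, aldehyde dehydrogenase turns that into acetate, and cytochrome P450 enzymes and catalase take a smaller part. Chronic exposure is known to shift fat storage, redox balance and stress responses of liver cells, and ending it is known to reverse some of these changes. Whether the 51 transcripts belong to those pathways cannot be read from these data. The deposited tables give Ensembl transcript identifiers with no gene name, none of the 51 was found in the reference tables of genes, and so no gene, position or sequence is given and the tissue label was not checked against marker genes. In pooled tissue, fewer cells of a type and less RNA per cell cannot be told apart.

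Together the 51 transcripts took a small share of the liver libraries. Their summed TPM was 1990.0 and 1993 in withdrawal females and 2367 and 2369 in withdrawal males. In alcohol-exposed livers the sum was 317 and 336 in females and 193 and 363 in males. In control livers it was 351 and 395 in females and 92.3 and 92.6 in males. The 51 therefore held 0.199% to 0.237% of all TPM in withdrawal livers, at most 0.0363% in alcohol-exposed livers and at most 0.0395% in control livers.

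The median transcript stood at 14.3 and 16.7 TPM in withdrawal females and 16.6 and 17.8 TPM in withdrawal males. Under alcohol the median was 3.55 and 3.64 TPM in females and 2.13 and 3.86 TPM in males. Among controls it was 2.69 and 3.36 TPM in females and 0.36 and 0.39 TPM in males. Thus 3 of the 4 groups without withdrawal lay close together, and control males lay far below them.

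**Figure D1:**
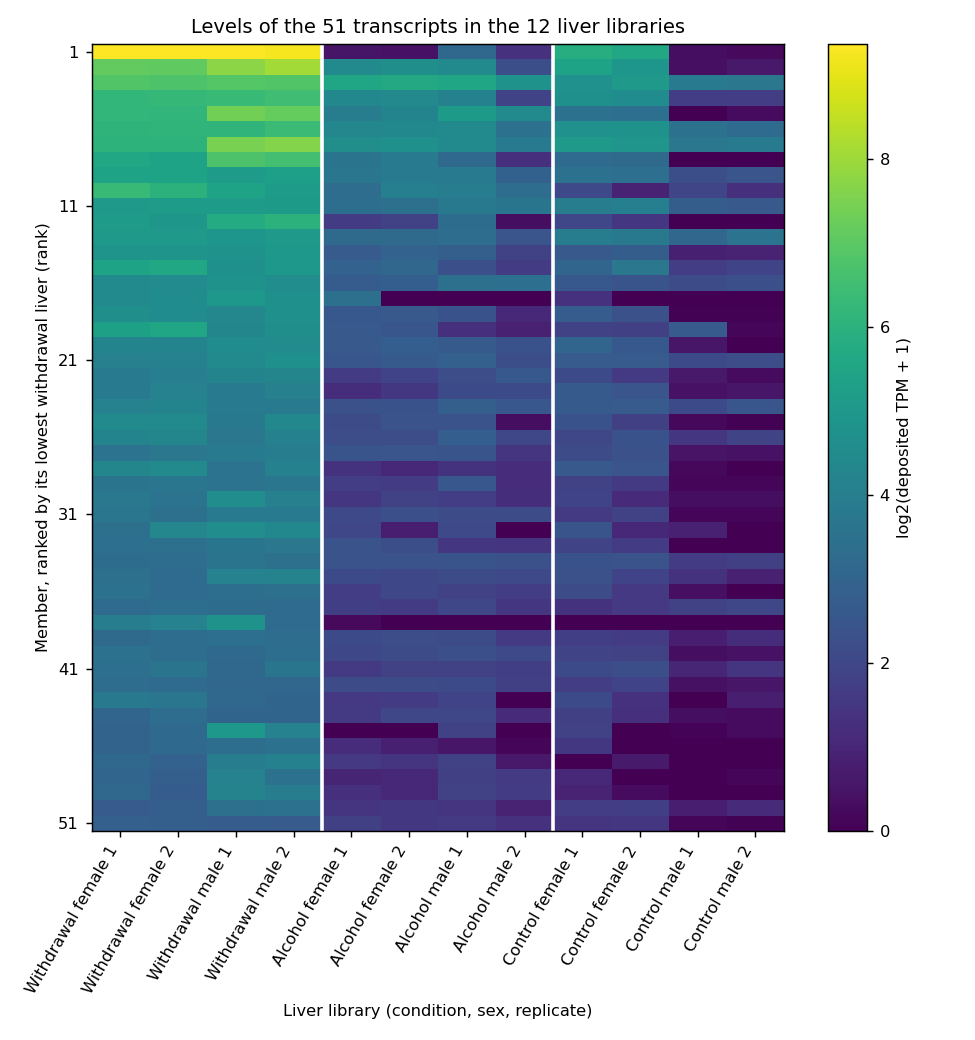
Deposited TPM as log2(TPM + 1) of each of the 51 transcripts (rows, ranked by their lowest withdrawal liver) in each of the 12 liver libraries (columns, withdrawal on the left, alcohol in the middle and control on the right). The withdrawal columns are brighter in every row, as the rule requires, and the control male columns are the darkest, with 31 of 51 rows under 1 TPM in both.

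Most members reached moderate levels. The lowest withdrawal liver was at 10 TPM or more for 32 of the 51, at 20 TPM or more for 17, at 50 TPM or more for 7 and at 100 TPM or more for 3. The ratio of the lowest withdrawal liver to the highest other liver ran between 2.03 and 45.1, with a median of 2.34, and 11 members reached 3.

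The edge of the rule was densely filled. Inside it, 17 members had a ratio under 2.2, the closest being one with 8.87 TPM in its lowest withdrawal liver against 4.37 TPM in its highest other liver. Just outside, 27 transcripts had a ratio of 1.8 to 2, the closest with 5.31 TPM against 2.67 TPM. By level, the lowest member had 5.42 TPM in its lowest withdrawal liver, and the highest transcript shut out by its level alone had 4.73 TPM. The number of members was 37 in TPM rescaled between libraries (34 of them shared with the 51) and 30 after quantile normalisation (28 shared).

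The member highest in withdrawal livers was ENSDART00000129772.2. It stood at 659 and 660.2 TPM in withdrawal females and 601 and 651 TPM in withdrawal males. Under alcohol it stood at 0.39 and 0.46 TPM in females and 1.52 and 7.68 TPM in males. In controls it was at 47.4 and 56.4 TPM in females and at 0.18 and 0.26 TPM in males. The sexes were alike after withdrawal, while the female controls lay far above every other liver without withdrawal. This one transcript made up much of the summed TPM, which without it was 1330 to 1334 in withdrawal females and 1717 to 1766 in withdrawal males.

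Next in level was ENSDART00000158147.1, with 134 and 139 TPM in withdrawal females and 211 and 266 TPM in withdrawal males. Alcohol-exposed females had 21.6 and 24.1 TPM and alcohol-exposed males 3.79 and 20.8 TPM. Control females had 29.7 and 42.7 TPM and control males 0.30 and 0.57 TPM. Here the male withdrawal libraries were the highest of all, and the male controls the lowest.

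**Figure D2:**
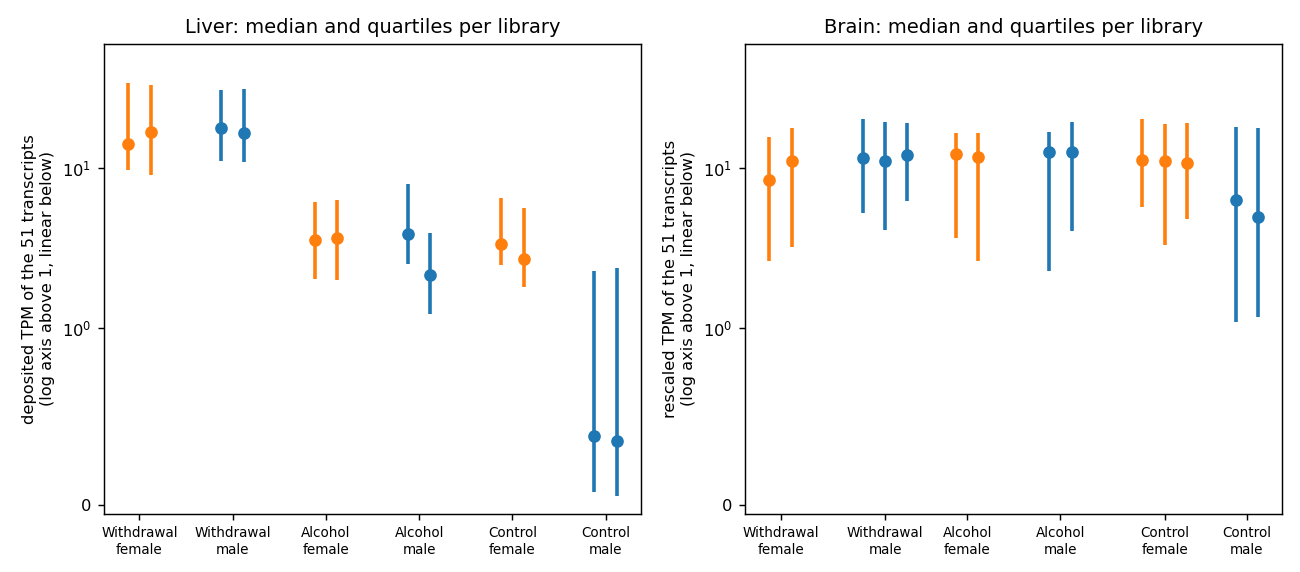
Median (points) and quartiles (lines) of the 51 transcripts in each library, in deposited TPM for the liver (left) and in TPM rescaled between libraries for the brain (right), with females in orange and males in blue. Liver medians are 14.3 to 17.8 TPM in withdrawal, 2.13 to 3.86 TPM under alcohol and 0.36 to 3.36 TPM in controls, whereas brain medians lie between 8.37 and 12.7 TPM in all groups but control males, at 4.94 and 6.27 TPM.

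Control males had the lowest levels for most members. In both of their libraries 31 of 51 members were under 1 TPM and 8 were listed at 0. In each of alcohol-exposed females, alcohol-exposed males and control females, 3 of 51 (5.88%) were under 1 TPM in both libraries. Among all 4682 transcripts that met the level criterion, 10.7% were under 1 TPM in both control male livers. That share was 0.192% in alcohol-exposed females, 0.15% in alcohol-exposed males and 0.854% in control females. The rule caps all of these livers, so nothing is read from the differences. The control male libraries set the ceiling of the rule for 1 member only, against 20 for control females, 17 for alcohol-exposed males and 13 for alcohol-exposed females. Accordingly, leaving both control male livers out of the rule gave 54 members. Leaving libraries out can only loosen the rule, so all 51 stay in by construction.

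Expressed against the withdrawal mean of the same sex, the level without withdrawal was similar in 3 groups. The median member was at 23.6% of the withdrawal level in alcohol-exposed females and at 21.7% in control females. It was at 19.7% in alcohol-exposed males and at 2.79% in control males. The highest member in any of these groups was at 47.3%, and the rule itself bounds this share from above.

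The rule used every liver library, so no liver comparison is independent of it. It asks for a high level in the lowest withdrawal library and a ceiling on the other 8, and both bear on how far groups can differ. Counts of members beside all tested transcripts in the liver are therefore descriptions, and nothing is read from their difference. Between the sexes within withdrawal livers, where a transcript low in either sex could not be a member, 0 of 51 members were higher in females and 6 were lower (limma adjusted p below 0.05), while over all 21158 tested liver transcripts 19.8% were higher and 21.2% lower in females, 41% in all. The median log2 difference, females minus males, was −0.18 over members and 0 over all tested transcripts, and 37 of 51 members had a negative value. Quantile normalisation gave 2 higher and 5 lower.

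The clearest difference was in ENSDART00000101655.4, with 65.2 and 65.7 TPM in withdrawal females and 179 and 196 TPM in withdrawal males (log2 difference −1.59, SE 0.22, limma adjusted p = 0.000934). In the livers without withdrawal it was higher in females, at 28.8 and 31.8 TPM in control females against 12.0 and 13.04 TPM in control males, so its order between the sexes was the opposite there. ENSDART00000143162.1 had 5.69 and 7.75 TPM in withdrawal females and 14.85 and 17.4 TPM in withdrawal males (log2 difference −1.23, SE 0.24, adjusted p = 0.00469). In both, male and female libraries did not overlap. The count of 6 was 3 without withdrawal male liver replicate 1 or without withdrawal female liver replicate 2, and 10 or 11 without alcohol male liver replicate 1 or 2, which enter the shared estimate of the spread.

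In control livers the sexes lay apart in the other direction. Of the 51 members, 33 were higher in control females than in control males and 1 was lower, against 27.9% and 23.7% of all tested liver transcripts. The median log2 difference, females minus males, was 1.23 over members and 0.09 over all tested transcripts. This comparison was added after the values were seen, and the rule bounds both groups from above without fixing their order. Among all transcripts that met the level criterion, 10.7% were under 1 TPM in both control male livers, against 0.854% in control females. Members were not set beside those transcripts in this comparison, so nothing is read from the counts.

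Under alcohol alone the members were called in both directions. The 8 libraries compared here are those whose highest value the rule caps. Averaged over the sexes, 18 members rose in alcohol-exposed livers and 3 fell against control, while 23.7% of all tested transcripts rose and 21.3% fell, 45% in all. Without rescaling 26 rose and 1 fell. In males 25 of 51 members rose and 2 fell (25.5% and 23.4% of all tested transcripts, 49% in all), with a median log2 change of 0.87 against 0.03 over all tested. In females 1 rose and 5 fell (8.65% and 7.14%, 15.8% in all), with a median of −0.17 against 0.0038. More calls in males than in females was thus also the pattern of all tested transcripts. Without rescaling 31 rose and none fell in males, and 2 rose and 4 fell in females. With only the groups compared in the fit, 14 rose in males and none fell. The female count of 6 was 3 without control female liver replicate 2 or alcohol female liver replicate 1, and 13 without alcohol male liver replicate 1 or 2. The description of these transcripts as raised only after withdrawal refers to the level that the rule sets. Of the 25 that rose in males, 23 were among the 31 members under 1 TPM in both control male livers. Those livers are also the baseline of the male comparison, so low members are bound to supply many of its rises. Of the same 25, 20 were also higher in control females than in control males, as were 33 of all 51 members. Both calls use the same control male libraries, so nothing is read from this overlap. Whether the male rises belong to alcohol or to the low control male libraries was not tested.

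ENSDART00000023089.8 had the largest such rise. In females it stood at 14.35 and 17.9 TPM under alcohol against 9.69 and 10.4 TPM in controls. In males it stood at 20.6 and 33.6 TPM under alcohol against 0 and 0.20 TPM in controls (4.34 as a log2 change with an SE of 0.27 and adjusted p = 9.91e-06). After withdrawal it was at 71.7 and 72.0 TPM in females and 142 and 164 TPM in males. Alcohol-exposed male libraries thus lay above control male libraries with no overlap, while the rule itself places the withdrawal livers above both. The averaged alcohol effect of both sexes was also called (log2 change 2.34, SE 0.19, adjusted p = 6.29e-05).

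ENSDART00000136984.1 was the member that rose under alcohol in females. It had 9.12 and 15.4 TPM in alcohol-exposed females against 0.85 and 3.19 TPM in control females (log2 change 2.00, SE 0.44, adjusted p = 0.019). In males it had 9.18 and 14.4 TPM under alcohol against 1.45 and 2.84 TPM in controls. The groups did not overlap in either sex. Its female call held under 15 of 20 alternatives, with adjusted p between 0.00986 and 0.145. It ended when nearly identical libraries were averaged (adjusted p = 0.145), when the groups compared were fitted alone (adjusted p = 0.101), and without alcohol female liver replicate 1 (0.0537), alcohol female liver replicate 2 (0.136) or control female liver replicate 2 (0.0853). Without single libraries its log2 change ran between 1.49 and 2.51.

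The strongest fall under alcohol was that of ENSDART00000129772.2 in females. With the levels given above, its log2 change was −5.40 (SE 0.45, adjusted p = 0.000302), the lowest of all members. Both alcohol-exposed females were under 1 TPM, while both control females were above 40 TPM. ENSDART00000139746.3 had 1.07 and 1.62 TPM in alcohol-exposed females against 4.53 and 5.19 TPM in control females (log2 change −1.54, SE 0.17, adjusted p = 0.0011). Withdrawal females had 18.75 and 20.8 TPM of it. In females both transcripts were thus lower under alcohol than in controls, while the rule requires the withdrawal livers to be highest.

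The falls called in males did not hold under every alternative. ENSDART00000123820.2 stood at 4.48 and 9.10 TPM in alcohol-exposed males against 7.53 and 10.95 TPM in control males, values that overlap as deposited but not once rescaled. Its log2 change was −0.99 with an SE of 0.26 (adjusted p = 0.0142), and its call ended without rescaling (adjusted p = 0.223, with adjusted p between 0.000526 and 0.223 over its 20 alternatives). It also ended with only the groups compared (adjusted p = 0.152) and without control male liver replicate 2 (adjusted p = 0.0692). ENSDART00000138065.2 was at 1.77 and 3.03 TPM under alcohol against 2.62 and 2.99 TPM in control males. These values too overlap as deposited but not once rescaled. The call of this transcript held under 9 of 20 alternatives.

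**Figure D3:**
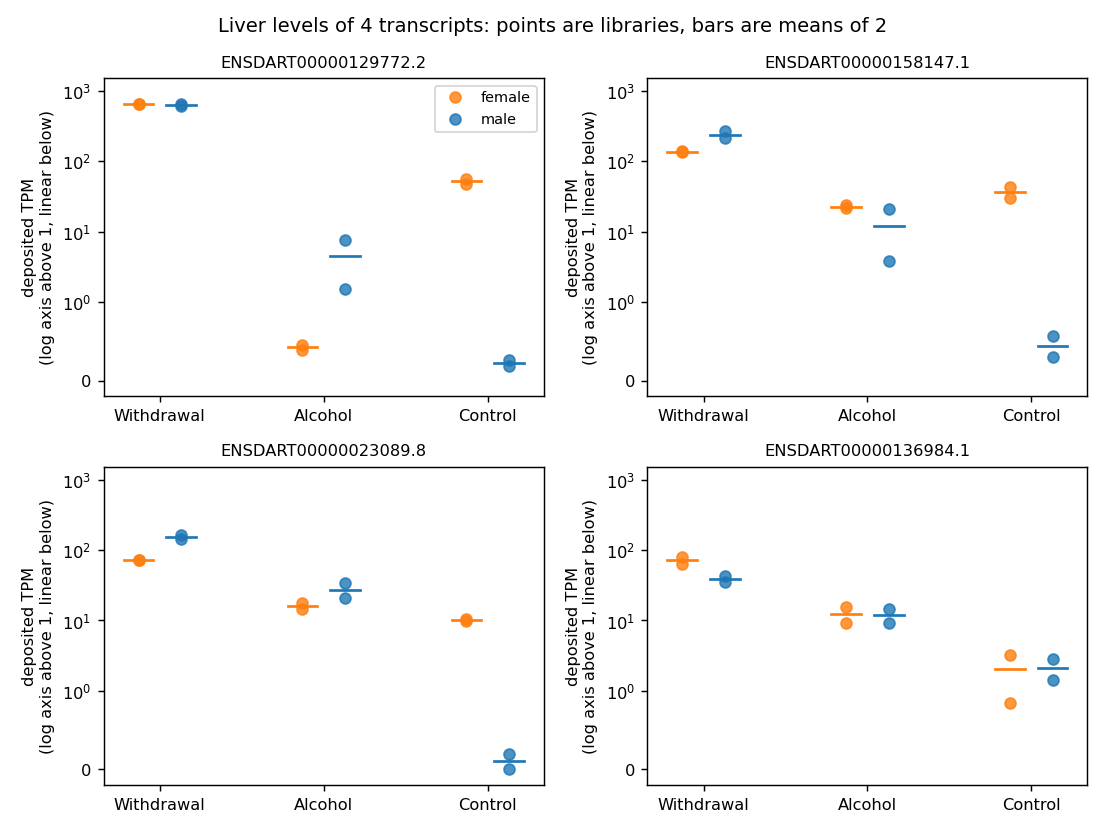
Deposited TPM of 4 transcripts in the liver libraries (points, with bars for the mean of 2) by condition, females in orange and males in blue, on an axis that is logarithmic above 1 TPM and linear below. In all 4 panels the withdrawal libraries are the highest, as the rule requires. ENSDART00000129772.2 is under 1 TPM in alcohol-exposed females but above 40 TPM in control females.

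The difference between the sexes in the alcohol effect was fitted directly, on the same capped libraries. For 19 of the 51 members the change was lower in females than in males, and for 0 it was higher, against 17.6% and 16.6% of all tested transcripts. The median of the difference, females minus males, was −0.93 over members and −0.02 over all tested transcripts. Without alcohol male liver replicate 2 the count was 29. The male control libraries enter both this difference and the sex difference in controls, and they stand apart from all other livers in these members.

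**Figure D4:**
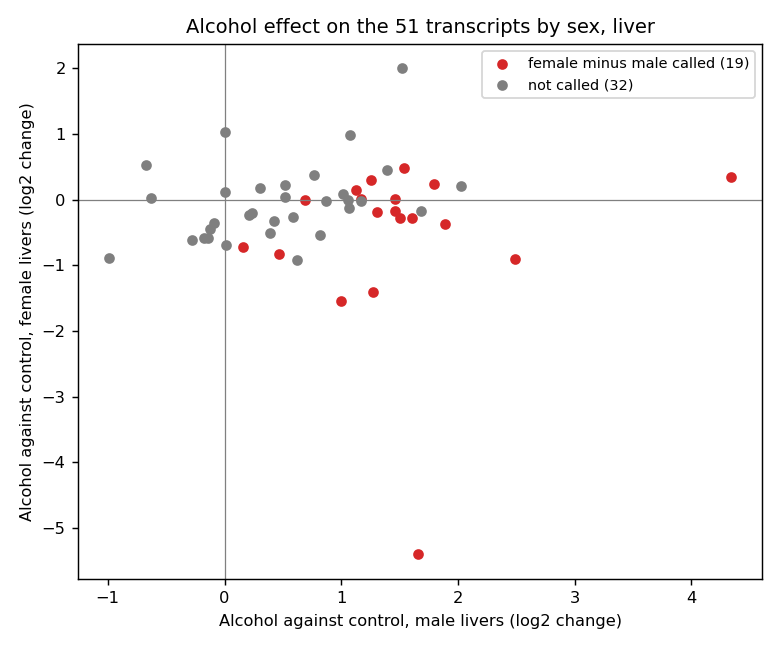
Log2 change of each of the 51 transcripts in alcohol-exposed against control livers, males on the horizontal and females on the vertical axis, with the 19 members whose change was called lower in females in red. The red points lie to the right of zero, and one, ENSDART00000129772.2, lies far below the others at −5.40 in females.

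The alcohol-exposed male livers differed from each other in these transcripts. Replicate 1 was above replicate 2 for 47 of 51 members (92.2%), with a median ratio of 1.73 over the 46 members above 0 in both. For the other 4631 transcripts at the same level criterion it was above in 51.7%, with a median ratio of 1.02. The rule caps both libraries for the members alone, so nothing is read from the difference in these shares. Leaving replicate 1 out of the rule gave 91 members, and leaving out replicate 2 gave 51. Among the 8 libraries without withdrawal, no other single library changed the number of members to more than 69. For ENSDART00000158147.1 in males, the log2 change under alcohol was 1.38 without replicate 1 and 3.58 without replicate 2, around 2.49 with both (SE 0.56, adjusted p = 0.00626). With only the groups compared its adjusted p was 0.122, the highest of its 20 alternatives, which started at 1.48e-05.

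The brain libraries took no part in choosing the transcripts and show whether the same transcripts moved in another tissue. Of the 51, 46 reached 1 TPM in at least 2 brain libraries and were tested, 90.2%, against 95.7% of the transcripts that met the liver level criterion. In the control brains 38 of 51 had a higher mean TPM than in the control livers (62.2% of transcripts at the level), and 9 had a higher mean than in the withdrawal livers (50.6%). The rule caps the control livers and asks for a high level in the withdrawal livers, which bears on both counts. Both counts use deposited TPM, a share within each library, with no rescaling between the tissues. They are counts of levels and not tests.

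The member highest in withdrawal livers was among the lowest in brain. ENSDART00000129772.2 had at most 1.39 rescaled TPM in any brain library. Brain levels below are TPM rescaled between libraries. By contrast, ENSDART00000101655.4 was the most abundant member in the brain, at 112 and 120 in withdrawal females, 154 to 157 in withdrawal males, 173 to 226 in control females and 133 and 135 in control males. In alcohol-exposed brains it was at 32.6 and 37.4 in females and 32.1 and 40.9 in males.

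Averaged over the sexes, 8 of the 46 tested members rose and 5 fell in withdrawal against control brains. Over all 36682 tested brain transcripts 11.3% rose and 11.1% fell, 22.4% in all, and the median over all 51 was 0.07 against 0.0074 over all tested. Without rescaling 7 rose and 1 fell, and after quantile normalisation 6 rose and none fell. The count of 13 was 8 without control female brain replicate 3 or without withdrawal male brain replicate 1, and 7 without withdrawal female brain replicate 2. The member with the largest rise, ENSDART00000163680.1, stood at 5.83 and 12.4 in withdrawal females and 8.04 to 11.5 in withdrawal males, against 4.25 to 5.18 in control females and 0 and 0.32 in control males. Its averaged log2 change was 2.00 with an SE of 0.19 (adjusted p = 7.53e-05). In females alone its log2 change was 0.72 and was not called (limma adjusted p = 0.0666). The fall of ENSDART00000014666.7 was slight (log2 change −0.23) and kept its call under 8 of 21 alternatives.

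In each sex alone the counts were different. In males 19 members rose and 9 fell in withdrawal against control brains (24.7% and 26.2% of all tested transcripts). In females 4 rose and 9 fell (14% and 11.8%). Of the 19 that rose in males, 7 fell in females and none rose, and of the 9 that fell in males, 4 rose in females and none fell. Over all tested brain transcripts, 32.2% of those that rose in males fell in females and 2.26% rose, and 33.4% of those that fell in males rose in females and 2.46% fell. Opposite calls in the sexes were thus the pattern of the brain libraries as a whole and are not particular to the members. These 2 comparisons share no library. Without rescaling 30 rose and 1 fell in males, and none rose and 23 fell in females. The rescaling divisors were 0.599 and 0.69 in control males and 0.638 and 0.677 in withdrawal females. They were larger in control females, at 0.824 to 0.897, and in withdrawal males, at 0.892 to 0.946. The part of this library-wide difference in the opposite calls was not tested. The female count of 13 was 6 without withdrawal female brain replicate 1 and 6 when those groups were fitted alone.

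In male brains the largest rise was again that of ENSDART00000163680.1 (log2 change 3.27, SE 0.26, adjusted p = 1.11e-05). ENSDART00000023089.8 stood at 42.7 to 52.5 in withdrawal males against 4.90 and 6.27 in control males (2.90 as a log2 change, SE 0.30, adjusted p = 4.03e-05). In females it was at 10.4 and 27.2 after withdrawal against 28.3 to 35.3 in controls. Withdrawal males were thus the highest of these 4 groups and control males the lowest, and the female change was not called (adjusted p = 0.0565).

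Among the members that fell in male brains were ENSDART00000088247.5 and ENSDART00000055722.6. The first had 10.9 to 11.3 in withdrawal males against 21.3 in both control males (−0.87 on the log2 scale, SE 0.09, adjusted p = 4.7e-05). The next had 19.8 to 20.8 in withdrawal males against 36.05 and 36.3 in control males (a log2 change of −0.79 with an SE of 0.10). In females ENSDART00000055722.6 moved the other way, with 30.1 and 32.1 after withdrawal against 18.1 to 22.8 in controls (log2 change 0.61, SE 0.10, adjusted p = 0.00191). Both of its calls ended without rescaling (adjusted p = 0.0665 in males and 0.139 in females, with adjusted p from 9.94e-05 and 0.00092 over 21 alternatives each).

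ENSDART00000060246.3 also rose in female brains, with 24.15 and 25.15 after withdrawal against 15.45 to 17.8 in controls (log2 change 0.53, SE 0.09). That call too ended without rescaling (adjusted p = 0.267, with adjusted p from 0.00107 over 21 alternatives). ENSDART00000158147.1 fell in females, to 8.23 and 12.3 in withdrawal against 20.7 to 25.25 in control brains (log2 change −1.14, SE 0.17, adjusted p = 0.000724). In males the same transcript was at 19.7 to 20.2 after withdrawal against 4.92 and 6.48 in controls. ENSDART00000101655.4, at the levels given above, fell by 0.80 on the log2 scale in females (SE 0.12, adjusted p = 0.00103).

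The test of the difference between the sexes in the brain withdrawal effect gave 8 members with a higher change in females and 23 with a lower one, against 27.6% and 25.3% of all tested transcripts, 52.9% in all. Without rescaling the numbers were 3 and 33. In control brains alone 18 members were higher in females than in males and 6 lower (19.1% and 18.6%), and without rescaling 26 and 2. In withdrawal brains 8 were higher in females and 14 lower (22.2% and 20.1%, 42.3% in all), and without rescaling 1 and 25. Without withdrawal female brain replicate 1 the total of 22 was 14. These 3 comparisons were added after the values were seen.

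After rescaling, the members fell into 2 groups in the brain according to their level in control male livers. All 19 that rose in withdrawal male brains were among the 31 under 1 TPM in both control male livers, of which 26 were tested in the brain. All 9 that fell were among the other 20. In females the 26 gave no rise and 8 falls, and the 20 gave 4 rises and 1 fall. The split was read only in rescaled TPM, and the directions depended on that. With no rescaling, 96.8% of the members called in male brains rose, and 0% of those called in female brains did. The split was made after the values were seen. It uses only liver libraries, but control males are also the baseline of the male brain comparison. In deposited TPM, 11 of the 31 were also under 1 TPM in both control male brains, against 2 of the 20. Whether brain and liver came from the same fish is not stated in the labels.

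The same split, again after rescaling, was seen in transcripts that are not members. Of 440 others at the same liver level and under 1 TPM in both control male livers, 76.1% rose in withdrawal male brains and 0.682% fell, beside 73.1% and 0% of the 26 members. Of 3994 others above that level in a control male liver, 18.5% rose and 44.3% fell, beside 0% and 45% of the 20 members. In females 2.05% of the 440 rose and 43.6% fell, beside 0% and 30.8% of the 26. Of the 3994, 26% rose and 15.1% fell in females, beside 20% and 5% of the 20. In males the shares of members and others lay within a few percentage points, except for rises among those above 1 TPM in a control male liver, where 0 of 20 members were called.

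Between control females and control males the tissues overlapped. Among the 46 members tested in both, 32 were higher in females in the liver and 18 in the brain, and 16 were higher in both, which is 50% of the liver list and 88.9% of the brain list. Over all 19361 transcripts tested in both tissues, 5613 were higher in females in the liver, 4479 in the brain and 2534 in both. The shared ones were 45.1% of the liver list and 56.6% of the brain list. A larger part of the members than of all transcripts stood on each list. That bears on the shared percentages, so nothing is read from their difference. The 2 lists rest on different libraries, but the labels do not say whether brain and liver came from the same fish or were prepared together, and the part of preparation was not tested.

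**Figure D5:**
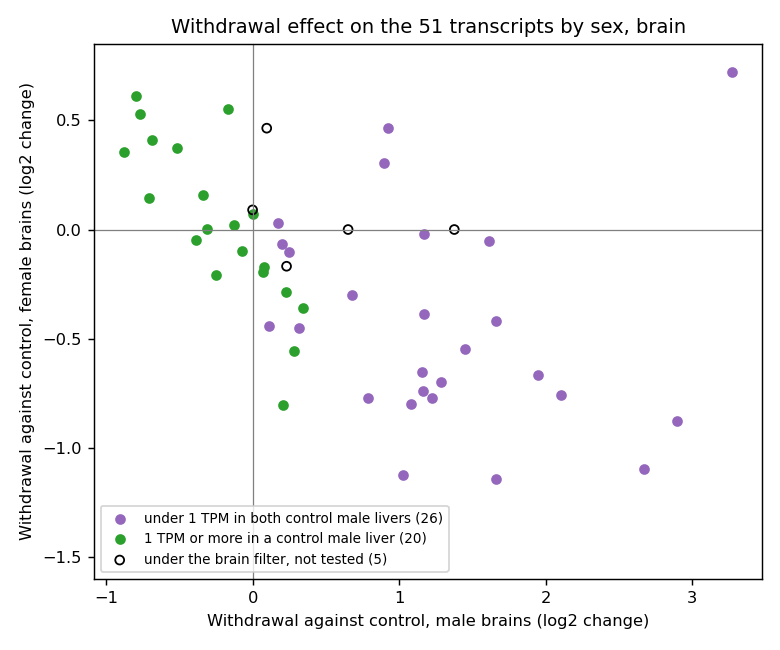
Log2 change, after rescaling, of the 51 transcripts in withdrawal against control brains, males on the horizontal and females on the vertical axis. Purple points, the 26 tested members under 1 TPM in both control male livers, lie to the right of zero, green points are the other 20 tested members, and open points are the 5 members under the brain filter.

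Against alcohol-exposed brains the direction depended on the rescaling. Of the 46 tested members, 14 were higher and 11 lower in withdrawal than in alcohol-exposed brains (24.8% and 21.4% of all tested transcripts), but without rescaling 1 was higher and 37 lower, and after quantile normalisation 5 and 22. Alcohol-exposed brains had rescaling divisors of 2.05 to 2.18 and the other brains of 0.599 to 0.946. The median log2 change of all tested transcripts was −1.04 without rescaling and −0.07 with it. The rises of ENSDART00000101655.4 (log2 change 1.88) and of ENSDART00000086823.5, at 48.7 and 50.4 in withdrawal females and 49.5 to 55.0 in withdrawal males against 23.4 and 24.0 in alcohol-exposed females and 20.0 and 25.4 in alcohol-exposed males (log2 change 1.11), did not keep their sign under every scaling. The fall of ENSDART00000026098.9, to 11.4 and 13.02 in withdrawal females and 12.1 to 13.3 in withdrawal males against 14.9 and 16.3 in alcohol-exposed females and 15.7 and 16.4 in alcohol-exposed males, kept its sign and its call under 21 of 21 alternatives. ENSDART00000137697.1 also fell (log2 change −0.43), with a call that held under 14 of 21. In the exposed brains the part of exposure and that of the preparation cannot be told apart.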

How the data were processed

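Levels were read from 2 tables of TPM (relative transcript abundance within a library) that the authors deposited for 14 brain and 12 liver libraries. Per the submitters' processing notes, the tools used were STAR 2.5.2 on danRer10, RSEM 1.3.1 and, for read quality, FastQC 0.11.7. Libraries were non-stranded, per the labels' protocols. Since TPM holds no counts, depth is unknown and counting intervals are not given. A listed 0 may also arise where near-identical transcripts compete for reads. Members were chosen on deposited TPM. For tests, TPM was divided by each library's median ratio to the geometric mean (over 17404 liver and 28316 brain transcripts above 0 everywhere), taking the typical transcript as constant, and taken as log2(TPM + 1). Tests covered transcripts at 1 TPM or more in 2 or more libraries (21158 in liver, 36682 in brain) with limma 3.58.1 in R 4.3.3 (moderated variance with a trend, a mean for each of 6 groups), with calls at 0.05 after Benjamini-Hochberg adjustment over all of them. Plots were drawn with matplotlib 3.10.9. The procedure was tested on simulated data with independent noise and few changed transcripts, a simpler setting than these libraries. The members and lists were chosen with earlier results of these data known, and 5 sex comparisons were added after the values were seen. Named transcripts are the 2 with the highest lowest-withdrawal level and, for each planned comparison, up to 2 called members a direction with the largest change and no overlap of libraries; any other is said to be chosen after its values were seen. Gene lists and cell type markers could not be used, because the tables list Ensembl transcripts and 0 of the 51 members matched the reference tables of genes.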

Additional observations from a re-analysis of the deposited data

Results flagged for a closer look

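For 4 named transcripts the liver response to alcohol differed between the sexes by the interaction test (limma, adjusted over 21158 transcripts), given as females minus males on the log2 scale. The difference was −7.06 for ENSDART00000129772.2 (SE 0.64, adjusted p = 0.000166), −4.00 for ENSDART00000023089.8 (SE 0.38, adjusted p = 0.000194), −3.40 for ENSDART00000158147.1 (SE 0.79, adjusted p = 0.0118) and −2.53 for ENSDART00000139746.3 (SE 0.25, adjusted p = 0.000235). All 4 were under 1 TPM in both control male livers, and the libraries compared are among those the rule used.

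For 7 named transcripts the brain response to withdrawal differed between the sexes. It was lower in females for ENSDART00000023089.8 (−3.78, SE 0.43, adjusted p = 4.62e-05), ENSDART00000158147.1 (−2.80, SE 0.24, adjusted p = 8.11e-06), ENSDART00000163680.1 (−2.55, SE 0.37, adjusted p = 0.000219) and ENSDART00000101655.4 (−1.01, SE 0.17, adjusted p = 0.00067). It was higher in females for ENSDART00000055722.6 (1.41, SE 0.15, adjusted p = 2.87e-05), ENSDART00000060246.3 (1.3, SE 0.12, adjusted p = 1.4e-05) and ENSDART00000088247.5 (1.23, SE 0.13, adjusted p = 3.35e-05). No cause of these differences was tested.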

How the results depend on the processing

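The 51 members became 32 with a level of 10 TPM, 11 with a ratio of 3, 166 with a ratio of 1.5 and 30 after quantile normalisation, and 51 to 91 without single libraries. With whole groups left out of the rule, which was added after the values were seen, they became 648 (withdrawal females), 337 (withdrawal males), 140 (alcohol-exposed males) and 108 (control females). Leaving out single libraries or groups can only add members. Counts of called members moved by over 1.5 times as follows. With nearly identical pairs averaged (alcohol females and withdrawal females in the liver, leaving fewer libraries) they were 12 for alcohol over both sexes, 3 for alcohol in females, 2 for withdrawal females against males and 11 for the sex difference of the alcohol effect. With only the groups compared they were 13 for withdrawal livers between sexes, 14 for alcohol in males and 6 for withdrawal in female brains. A pseudocount of 0.1 gave 3 for withdrawal livers between sexes. Without rescaling, which shifted the median of all transcripts by 0.28 for liver alcohol over both sexes, 0.37 in males and 0.17 in females, and by 0.29 in male and −0.23 in female withdrawal brains, the counts were 8 for brain withdrawal over both sexes, 23 in female brains and 38 against alcohol, and quantile normalisation gave 6 for brain withdrawal over both sexes. The cause of these moves was not tested.

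Without single libraries the counts ran between 3 and 11 (withdrawal livers, females against males), 14 and 29 (liver alcohol, both sexes), 19 and 33 (males), 3 and 13 (females), 13 and 29 (sex difference of the alcohol effect), 29 and 38 (control livers, females against males), 7 and 14 (brain withdrawal, both sexes), 24 and 29 (males), 6 and 16 (females), 27 and 33 (their sex difference), 20 and 24 (control brains, females against males), 14 and 24 (withdrawal brains, females against males) and 20 and 25 (against alcohol). The sign turned for ENSDART00000086823.5 between withdrawal and alcohol-exposed brains (−0.28 without rescaling, −0.16 after quantile normalisation) and for ENSDART00000101655.4 (−0.20 after quantile normalisation).

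Replicate numbers did not pair the samples: deviations from group means of same-numbered libraries correlated between −0.04 and 0.10 in the liver and between −0.18 and 0.06 in the brain. With the number as a replicate block the counts were 18 for liver alcohol over both sexes, 28 in males, 6 in females, 7 for withdrawal livers between sexes, 34 for control livers between sexes, 19 for the sex difference of the alcohol effect, 9 for brain withdrawal over both sexes, 25 in males, 10 in females, 26 for their sex difference, 22 for control brains and 16 for withdrawal brains between sexes, and 22 against alcohol. Depth is unknown, so values near 0 cannot be told from a missed transcript.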

Other observations

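Some members, chosen after their values were seen, behaved unlike the rest. ENSDART00000029708.7 had the largest ratio of the rule. It stood at 14.3 and 16.7 TPM in withdrawal female livers and at 8.57 and 27.4 TPM in withdrawal male livers, while it was listed at 0 in all control livers and in all alcohol-exposed livers but one, at 0.19 TPM. In the brain it was listed at 0 in 13 of 14 libraries. Its withdrawal male replicates differed by 3.2 times, the widest gap of any member in that group, where the median gap was 1.15 times.

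ENSDART00000110058.1 switched between replicates. It stood at 20.6 and 22.6 TPM in withdrawal female and 24.8 and 31.1 TPM in withdrawal male livers. In alcohol-exposed female livers it was at 10.1 TPM in replicate 1 and 0.02 TPM in replicate 2. In the brain it reached 16.5 rescaled TPM in withdrawal male replicate 3 and was listed at 0 in the other 13 libraries. No member shared its values in all 12 livers with another transcript.

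The mirror of the rule, with every control and alcohol-exposed liver at 5 TPM or more and at least 2 times above every withdrawal liver, held for 14 transcripts, against 51 for the rule itself. The 2 rules compare a minimum over unequal numbers of libraries, 8 in the mirror and 4 here, so the numbers are not a test of direction.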
